A study of Mus musculus with 4 samples.

Results

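Cell cycle and DNA replication genes were described in the liver of aP2-SREBP-1c mice. The list holds 38 genes and was chosen by gene symbol. A gene was taken as measured when a probe set of the array carried that symbol and no other, and where several did so, that with the highest mean over the 4 arrays stands for the gene. By this rule 36 of the 38 genes were measured, among 19938 measured genes in all. The remaining pair is Cdkn1a, whose probe set also carries the symbol 4930567H12Rik, and Ccnb1, for which no probe set was found in the annotation used here.

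All 4 samples were livers of male aP2-SREBP-1c mice (C57Bl6-TgN aP2-HA-hSREBP-1c-NT), 24 weeks old and fed regular chow, and 1 array was run per mouse. In this line the aP2 promoter drives the active part of human SREBP-1c in adipocytes, so that the mice lose adipose tissue and store lipid in the liver, where the transgene is not expressed according to the study's description of the line. Control livers were not analysed here. Levels and their spread between the 4 mice are therefore given, without a comparison of genotypes and without p-values. Levels are on the log2 scale and come from Mouse Gene 1.0 ST arrays. A level belongs to its own probe set, and levels of different genes are not ranked.

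Cells enter the cycle in G1, when D-type cyclins with CDK4 or CDK6 and E-type cyclins with CDK2 phosphorylate the retinoblastoma protein and release E2F transcription factors. E2F factors then switch on genes for DNA synthesis, and a later wave of genes drives chromosome condensation, spindle assembly and division. Most hepatocytes of the adult liver are out of the cycle, many are polyploid, and they can return to division after loss of tissue.

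A gene was called above background when each of the 4 arrays had it above a limit. The limit was the 95th percentile, taken within the array, of 1035 olfactory receptor (Olfr) probe sets, whose genes are expressed mainly in the nose. This Olfr limit lay at 5.56, 5.41, 5.40 and 5.37 in mice 1 to 4. Of the Olfr genes themselves, 2.82% passed it on all arrays. Mouse 1 differed from the other arrays in its spread. Its SD over all genes was 1.72 against 1.83 to 1.87. Genes above the limit on all arrays differed there from the average of the remaining arrays by a median of -0.087. For genes that failed on at least 1 array it was 0.13. Hepatocyte markers (8 of 8 measured) were above the limit.

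In these livers 27 of the 36 genes (75.0%) were above the Olfr limit, as were 60.4% of all genes measured. Of the G1 cyclins and kinases 6 of 8 were above the limit, of the replication genes 10 of 11, and of the mitosis genes 6 of 12. Both measured CDK inhibitors and all 3 E2F factors were above it as well. With the 99th percentile of the Olfr probe sets as the limit, 13 of 36 genes (36.1%) remained above it, against 42.9% of all genes, so that the share of the list then lay under that of all genes. At that limit 5 of 8 G1 genes, 4 of 11 replication genes and 1 of 12 mitosis genes passed. The order of G1 before mitosis was the same at both limits, whereas replication genes were above G1 genes in share at the first limit only. The mitosis share was under that of all genes at both, but over it with the 90th percentile (75.0% against 68.9%). The same held with 3 of 4 arrays sufficing (66.7% against 64.6%) and without mouse 1 (66.7% against 62.7%). With Ccna2 and Top2a counted as replication and not mitosis genes, 10 replication and 6 mitosis genes were still above the limit. Neither gene passed, so that this placement lowers the replication share and raises the mitosis share. In whole tissue, few cells with a transcript and little RNA per cell cannot be told apart.

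**Figure D1:**
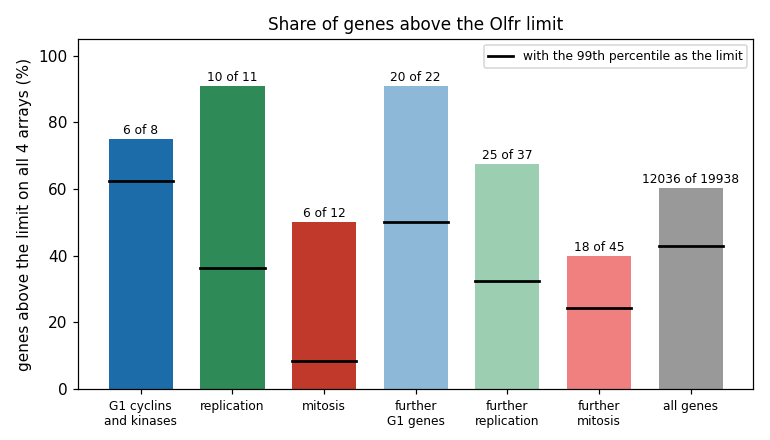
Share of genes above the Olfr limit on all 4 arrays, in percent, for the members by stage, for further genes of the same stages and for all measured genes. Bars use the 95th percentile of the Olfr probe sets and black lines the 99th. The mitosis bars are at 6 of 12 and 18 of 45 genes, under the 60.4% of all genes, and the black line of the mitosis members is at 8.33%. Without mouse 1 the mitosis members are at 66.7%, over the 62.7% of all genes.

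Of the G1 genes, Cdk4, a partner of the D cyclins, was measured at 8.30, 8.43, 8.74 and 8.35 in mice 1 to 4, with a mean of 8.46 ± 0.20 (SD, n = 4). Its value was at least 2.74 over the Olfr limit on each array. Cdk6, which binds the same cyclins, was measured at 7.36, 8.26, 8.35 and 7.79 (7.94 ± 0.46, SD, n = 4). Mice 2 and 3 were highest and mouse 1 was lowest, a 1.99-fold range. Cdk2, the partner of cyclins E and A, was measured at 6.25, 6.71, 6.92 and 6.49 (6.59 ± 0.29, SD, n = 4) and had the same lowest and highest mouse as Cdk6.

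All 3 D-type cyclins were above the limit. Ccnd1, which hepatocytes induce when they leave quiescence, was measured at 7.51, 7.78, 7.81 and 7.58 (7.67 ± 0.15, SD, n = 4). Ccnd2 was the steadiest of all 36 genes, with 7.22, 7.31, 7.21 and 7.31 (7.26 ± 0.05, SD, n = 4). Ccnd3 was measured at 5.85, 6.40, 6.46 and 6.35 (6.27 ± 0.28, SD, n = 4), with mouse 1 apart from the other 3 mice. The E-type cyclins, which act at the entry into S phase, did not pass on every array. Ccne1 was measured at 5.54, 5.72, 5.62 and 5.46 (5.59 ± 0.11, SD, n = 4) and was under the limit in mouse 1 alone, with a difference of -0.026. Ccne2 was under the limit in every mouse, at 3.58, 4.45, 4.63 and 4.04 (4.18 ± 0.47, SD, n = 4).

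Both CDK inhibitors with a probe set of their own were above the limit. Cdkn1b, which encodes p27, the inhibitor of cyclin E and CDK2, was measured at 7.11, 7.21, 7.33 and 7.11 (7.19 ± 0.11, SD, n = 4) and varied little between mice. Cdkn2c, which encodes p18, an inhibitor of CDK4 and CDK6, was measured at 5.82, 5.89, 6.13 and 5.59 (5.86 ± 0.22, SD, n = 4). A further probe set of Cdkn1b had a lower mean of 5.62 ± 0.17 (SD, n = 4), and its highest mouse was mouse 4, not mouse 3.

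The 3 E2F factors were 0.65 to 0.92 over the limit on average. E2f1, an activator of S phase genes, was measured at 6.38, 6.14, 6.39 and 6.19 (6.28 ± 0.13, SD, n = 4). E2f7 and E2f8 encode repressors that act late in S phase and that are known to drive hepatocyte polyploidization. E2f7 was measured at 6.37, 6.07, 5.79 and 6.10 (6.08 ± 0.24, SD, n = 4), highest in mouse 1 and lowest in mouse 3. E2f8 was measured at 6.47, 6.31, 6.43 and 6.23 (6.36 ± 0.11, SD, n = 4), within a 1.18-fold range.

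Among the replication genes, Pcna, the sliding clamp of the DNA polymerases, was measured at 8.46, 8.45, 8.49 and 8.64 (8.51 ± 0.09, SD, n = 4), at least 2.90 over the limit on each array. A second Pcna probe set gave 8.45 ± 0.12 (SD, n = 4), and both were highest in mouse 4. Pcna also acts in DNA repair. The genes of nucleotide supply were above the limit too. Tk1, thymidine kinase, was measured at 6.86, 6.70, 6.59 and 7.01 (6.79 ± 0.18, SD, n = 4), Rrm1 at 6.29, 6.37, 6.46 and 6.29 (6.35 ± 0.08, SD, n = 4) and Rrm2 at 6.78, 6.46, 6.47 and 6.41 (6.53 ± 0.17, SD, n = 4). Rrm1 and Rrm2 encode the subunits of ribonucleotide reductase. A second Tk1 probe set was highest in mouse 2, where the one used here was highest in mouse 4, so that the order of the mice for Tk1 depended on the probe set.

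The 6 subunits of the MCM helicase, which is loaded on origins in G1 and opens the DNA in S phase, were all above the limit. The lowest margin on any array was under 0.1 for Mcm3, Mcm4 and Mcm6, so that these calls rest on small differences. Mcm2 was measured at 6.05, 6.31, 6.20 and 6.16 (6.18 ± 0.11, SD, n = 4) and Mcm5 at 5.84, 5.90, 5.71 and 5.82 (5.82 ± 0.08, SD, n = 4), and neither differed by more than 1.20-fold between mice. Mcm3 had the widest range of the 6, with 5.99, 5.77, 5.89 and 5.42 (5.77 ± 0.25, SD, n = 4) and mouse 4 lowest. Mcm4 was measured at 5.61, 5.44, 5.61 and 5.60 (5.56 ± 0.08, SD, n = 4) and in mouse 2 lay 0.026 over the limit. Mcm6 was measured at 5.77, 5.79, 5.46 and 5.57 (5.65 ± 0.16, SD, n = 4) and Mcm7 at 6.39, 6.36, 6.06 and 6.09 (6.22 ± 0.18, SD, n = 4). For these latter subunits the values of mice 1 and 2 were above those of mice 3 and 4. Gmnn, which encodes geminin, the protein that blocks a second loading of the helicase, was under the limit in every mouse, at 5.22, 5.30, 5.08 and 5.18 (5.20 ± 0.09, SD, n = 4).

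The promoter windows of Mcm5 and Mcm6 are shown because both hold E2F words, which only 543 of 15614 genes with a probe set and a window (3.48%) hold. A window runs from 250 bases before to 50 bases after the start of the gene, 5′ to 3′ on the strand of the gene, and was taken from RefSeq on GRCm38.p6. Capitals mark the words searched on either strand, namely TTTCGCGC, TTTGGCGC, TTTCCCGC and TTTGCCGC for E2F, TTTGAA and TTCGAA for the cell cycle homology region (CHR) of mitotic promoters, and CCAAT, the box bound by NF-Y. The Mcm5 window (chr8:75109259-75109558, plus strand) and the Mcm6 window (chr1:128359656-128359955, minus strand) read as follows.
Mcm5: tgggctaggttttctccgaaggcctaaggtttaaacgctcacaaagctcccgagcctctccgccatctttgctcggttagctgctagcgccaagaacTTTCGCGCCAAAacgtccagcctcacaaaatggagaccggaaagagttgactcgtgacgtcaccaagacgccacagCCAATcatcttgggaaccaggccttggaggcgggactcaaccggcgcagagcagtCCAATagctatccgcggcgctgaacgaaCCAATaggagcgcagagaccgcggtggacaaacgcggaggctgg
Mcm6: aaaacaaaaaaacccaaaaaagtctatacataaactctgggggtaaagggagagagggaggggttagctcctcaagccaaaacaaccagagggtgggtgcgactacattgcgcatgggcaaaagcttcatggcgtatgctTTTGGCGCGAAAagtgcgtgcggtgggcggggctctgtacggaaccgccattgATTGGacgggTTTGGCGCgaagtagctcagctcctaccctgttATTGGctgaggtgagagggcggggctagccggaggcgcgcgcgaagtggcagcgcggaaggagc
In Mcm5 an E2F word on each strand, at positions -153 and -149 from the start, overlapped. Mcm6 held 3 E2F words, at -110, -106 and -47, of which the first and second overlapped. CCAAT occurred 3 times in Mcm5 and, on the opposite strand, 2 times in Mcm6. A match of letters does not show that a factor binds there.

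Of the mitosis genes, 6 were above the limit. Mki67, the antigen by which dividing cells are counted in tissue sections, was measured at 5.80, 6.14, 6.19 and 5.94 (6.02 ± 0.18, SD, n = 4). Cdk1, the kinase that starts mitosis, was measured at 6.29, 6.11, 5.63 and 5.56 (5.90 ± 0.36, SD, n = 4). Its values in mice 1 and 2 were above those in mice 3 and 4, and all 4 were within 0.73 of the limit. Ccnb2, a B-type cyclin that activates Cdk1, was measured at 5.70, 6.21, 6.07 and 6.10 (6.02 ± 0.22, SD, n = 4) and was lowest in mouse 1, where Cdk1 was highest.

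Aurka, a kinase of the spindle poles, was measured at 6.16, 6.48, 6.40 and 6.24 (6.32 ± 0.14, SD, n = 4) and was lowest in mouse 1. Aurkb, the kinase of the chromosomal passenger complex, was measured at 6.46, 6.53, 5.97 and 5.84 (6.20 ± 0.34, SD, n = 4), and here too mice 1 and 2 were above mice 3 and 4. Birc5, which encodes survivin of the same complex, was above the limit in 1 mouse, mouse 2, with values of 5.34, 5.43, 5.25 and 5.34 (5.34 ± 0.07, SD, n = 4). Cdc20, an activator of the anaphase-promoting complex, was measured at 6.34, 5.67, 5.41 and 5.83 (5.81 ± 0.39, SD, n = 4). In mouse 3 it was 0.0091 over the limit, and the call for Cdc20 rests on that margin.

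The other mitosis genes did not pass on every array. Ccna2, the cyclin of S phase and G2, was measured at 5.30, 5.94, 5.79 and 5.72 (5.68 ± 0.27, SD, n = 4) and was under the limit in mouse 1 alone, with a difference of -0.27. Plk1, a kinase of mitotic entry and exit, was measured at 5.50, 5.46, 5.71 and 5.64 (5.58 ± 0.12, SD, n = 4) and was likewise under the limit in mouse 1 alone, with a difference of -0.062. Without mouse 1, Ccne1, Ccna2 and Plk1 passed and 30 of 36 genes were above the limit, with 62.7% of all genes. Top2a, which untangles replicated DNA, was measured at 5.05, 5.16, 5.53 and 5.35 (5.27 ± 0.21, SD, n = 4) and passed in mouse 3 only. A second Top2a probe set was under the limit in every mouse, at 4.04, 4.35, 4.25 and 3.90, and was highest in mouse 2. The spindle checkpoint genes Bub1, at 4.71, 3.82, 4.35 and 4.19 (4.27 ± 0.37, SD, n = 4), and Bub1b, at 4.83, 4.71, 4.87 and 4.65 (4.76 ± 0.10, SD, n = 4), were under the limit in every mouse.

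**Figure D2:**
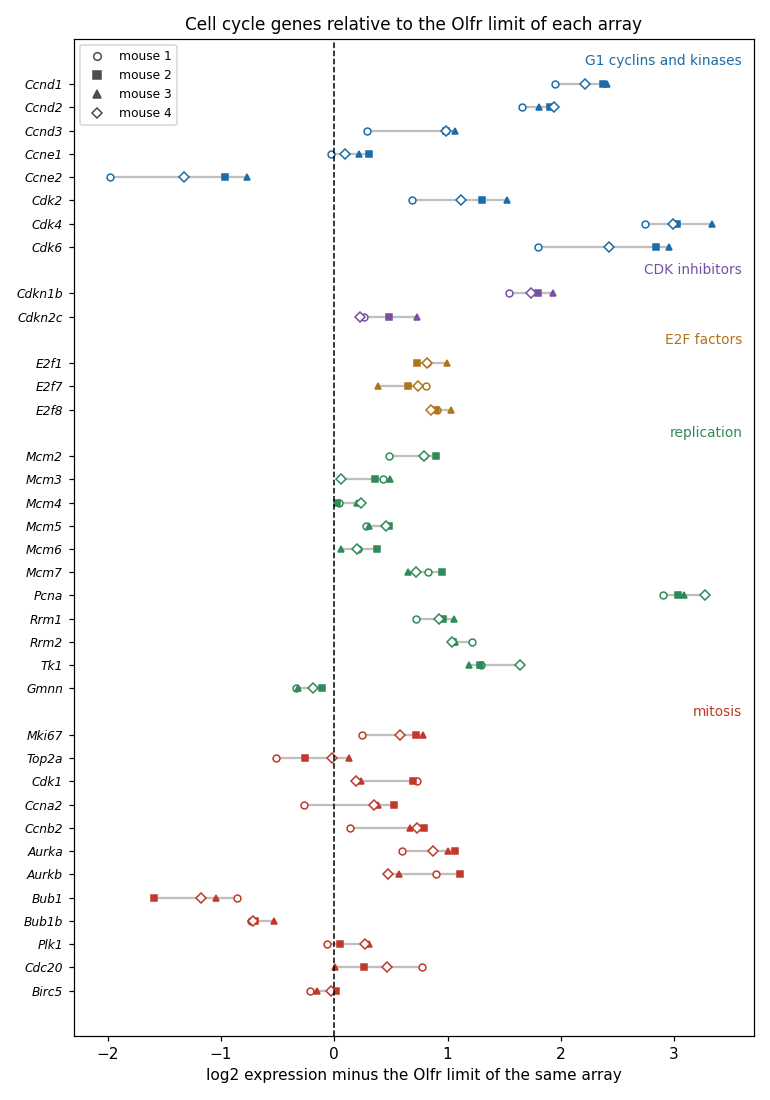
Log2 expression of the 36 measured genes minus the Olfr limit of the same array, by stage, with 1 symbol per mouse and grey lines from the lowest to the highest mouse. The dashed line is the limit. Of the 36 genes 27 have all 4 symbols to the right of it, 4 have none and 5 have some, and distances of different genes are not compared because each has its own probes.

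Between the mice, 6 of the 27 genes above the limit (22.2%) differed by more than 1.5-fold from the lowest to the highest mouse, as did 12.8% of all genes above the limit. These were Cdk6 (1.99-fold), Cdk2 (1.59-fold) and Ccnd3 (1.53-fold) of the G1 genes and Cdc20 (1.90-fold), Cdk1 (1.66-fold) and Aurkb (1.61-fold) of the mitosis genes. No replication gene did so, and none of the 27 genes reached 2-fold. E2f7 (1.497-fold) and Mcm3 (1.48-fold) were just below. The median SD was 0.24 for G1 genes, 0.13 for replication genes, 0.28 for mitosis genes and 0.15 for all genes above the limit. The count rested on mouse 1, since without it Aurkb alone differed by more than 1.5-fold and the share of all genes was 2.66%.

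The mice were not in the same order in both stages. Cdk6, Cdk2 and Ccnd3 were lowest in mouse 1 and highest in mouse 3. Cdc20 and Cdk1 were highest in mouse 1 and Aurkb in mouse 2, and the lowest values of the 3 genes were in mice 3 and 4. Set against the average of the remaining mice, G1 genes differed by a median of -0.33, 0.15, 0.32 and -0.13 in mice 1 to 4. Mouse 1 was the lowest for 5 of 6 G1 genes, and for 5613 of the 12036 genes above the limit in all. For mitosis genes it was 0.07, 0.23, -0.12 and -0.10, and for replication genes 0.07, 0.01, -0.05 and -0.06. Without the filter on low values the mitosis genes differed by -0.05 in mouse 1 and 0.11 in mouse 3, so that the sign turned in both, and that of mouse 1 also turned without mouse 4 (-0.04). The mitosis genes did not move as 1 group, since Ccnb2, Mki67 and Aurka were lowest in mouse 1, where Cdk1 and Cdc20 were highest. After quantile normalization of the 4 arrays the same 6 genes exceeded 1.5-fold, and the difference of G1 genes in mouse 1 was -0.27.

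Markers of other cells moved with some of these values. Stellate cell markers (7 of 7 above the limit) had a mean level of 7.06, 7.57, 7.52 and 7.18 in mice 1 to 4, and mice 2 and 3 were higher than mice 1 and 4, as for Cdk6. Lrat, the retinol-storing enzyme of stellate cells, was measured at 8.29, 9.23, 9.33 and 8.84, whereas Des of the same list was highest in mouse 1 (6.07, 6.02, 5.97 and 5.59). In mean level this order was not particular to stellate markers. The mean levels of hepatocyte (12.90, 13.07, 13.10 and 13.01), endothelial (7.62, 7.88, 7.86 and 7.83) and cholangiocyte markers (5.84, 6.03, 6.04 and 5.85) were also higher in mice 2 and 3. Single genes departed from it, as 4 of 6 endothelial markers were highest in mouse 4 and Sox9 of cholangiocytes was lowest in mouse 2. After quantile normalization stellate markers differed from the average of the remaining mice by a median of -0.23, 0.34, 0.15 and -0.19. For hepatocyte markers it was -0.015, -0.008, 0.039 and 0.00035, and for endothelial markers -0.08, 0.01, 0.02 and 0.07. Mean levels of macrophage markers were highest in mouse 4 (7.60, 7.65, 7.66 and 7.71). Pancreatic acinar markers (6 of 6 measured above the limit) had a mean level of 8.37, 6.27, 6.53 and 8.11, and the Tk1 probe set used here was likewise higher in mice 1 and 4, though the second was not. The part of these cells in the values of the cell cycle genes was not tested.

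**Figure D3:**
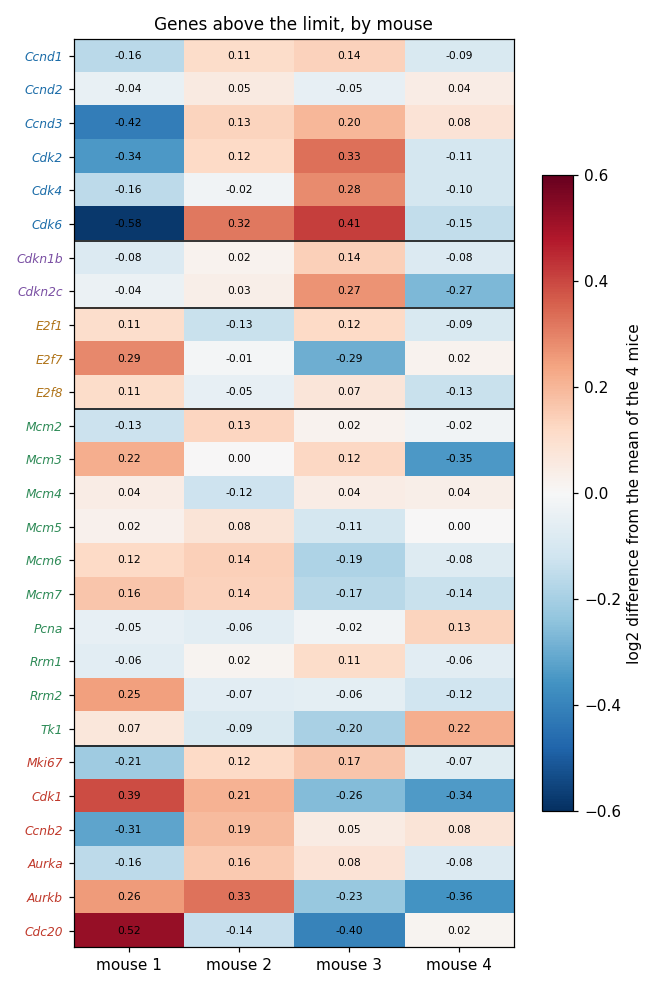
Log2 difference of each of the 27 genes above the limit from its mean over the 4 mice, printed in each cell, with red for higher and blue for lower values. Gene names are coloured by stage and lines separate the stages. Mouse 1 is lowest for 5 of 6 G1 genes, as for 5613 of all 12036 genes above the limit, with Cdk6 at 7.36 against a mean of 7.94, and Cdc20 is highest there at 6.34 against 5.81, while no replication gene spans more than 1.5-fold.

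CHR words in the promoter windows set the mitosis genes apart from the other stages. CHR words were found in the windows of 9 of 11 mitosis genes with a window (81.8%), 2 of 9 replication genes (22.2%) and 0 of 5 G1 cyclins and kinases, against 19.0% of the 15614 genes with a probe set. CCAAT was found in 10 of 11 mitosis genes, 8 of 9 replication genes and 2 of 5 G1 genes, against 41.7%. E2F words were found in 4 of 9 replication genes (44.4%), 1 of 11 mitosis genes and 1 of 5 G1 genes, against 3.48%. Both CHR and CCAAT were found in 9 mitosis genes and in 7.69% of the genes with a probe set. Of these 9 genes, 5 were above the Olfr limit (Mki67, Cdk1, Ccnb2, Aurka and Cdc20) and 4 were not (Top2a, Bub1, Bub1b and Plk1), so that the words were present on both sides of the limit. Windows were found for 31 of the 38 genes. Since a gene with several starts has several windows, a word in any of them was counted. In the further genes of the same stages, CHR words were in 27.8% of G1, 19.4% of replication and 70.3% of mitosis genes. E2F words did not separate G1 from replication there, with 6 of 18 (33.3%) and 10 of 31 genes (32.3%), and were in 3 of 37 mitosis genes.

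The windows of Cdk1 and Cdc20, which varied most between mice among mitosis genes above the limit, are shown with those of Ccnb2, which was above the limit, and Plk1, which was not. The window of Cdk4, which held no word of the 3 kinds, is shown for contrast. The lines give Cdk1 (chr10:69352863-69353162, minus strand), Cdc20 (chr4:118437294-118437593, minus strand), Ccnb2 (chr9:70421505-70421804, minus strand), Plk1 (chr7:122159185-122159484, plus strand) and Cdk4 (chr10:127063285-127063584, plus strand), with capitals as before.
Cdk1: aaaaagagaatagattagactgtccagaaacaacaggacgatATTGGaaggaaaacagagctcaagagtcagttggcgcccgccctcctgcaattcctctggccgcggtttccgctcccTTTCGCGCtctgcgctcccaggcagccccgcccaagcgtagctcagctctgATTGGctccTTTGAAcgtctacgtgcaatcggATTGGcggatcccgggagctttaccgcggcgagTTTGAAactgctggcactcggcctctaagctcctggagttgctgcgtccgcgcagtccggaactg
Cdc20: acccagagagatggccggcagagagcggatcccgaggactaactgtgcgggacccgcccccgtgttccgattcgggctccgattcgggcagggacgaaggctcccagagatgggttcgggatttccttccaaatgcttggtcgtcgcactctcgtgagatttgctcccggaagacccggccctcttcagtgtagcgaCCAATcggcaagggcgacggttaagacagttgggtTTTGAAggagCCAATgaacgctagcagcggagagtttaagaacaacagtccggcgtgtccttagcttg
Ccnb2: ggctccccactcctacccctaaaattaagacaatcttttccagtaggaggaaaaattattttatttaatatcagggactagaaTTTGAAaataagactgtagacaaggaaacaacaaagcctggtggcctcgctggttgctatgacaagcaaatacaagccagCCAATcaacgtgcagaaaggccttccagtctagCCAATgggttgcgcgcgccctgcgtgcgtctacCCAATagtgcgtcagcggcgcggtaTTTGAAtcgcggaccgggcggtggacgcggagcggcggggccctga
Plk1: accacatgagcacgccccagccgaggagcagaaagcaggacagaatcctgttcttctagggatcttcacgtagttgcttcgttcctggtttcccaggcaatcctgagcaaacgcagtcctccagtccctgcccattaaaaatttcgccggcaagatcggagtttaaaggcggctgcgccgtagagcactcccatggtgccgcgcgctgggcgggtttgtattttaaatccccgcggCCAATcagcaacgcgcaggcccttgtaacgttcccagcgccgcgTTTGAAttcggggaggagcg
Cdk4: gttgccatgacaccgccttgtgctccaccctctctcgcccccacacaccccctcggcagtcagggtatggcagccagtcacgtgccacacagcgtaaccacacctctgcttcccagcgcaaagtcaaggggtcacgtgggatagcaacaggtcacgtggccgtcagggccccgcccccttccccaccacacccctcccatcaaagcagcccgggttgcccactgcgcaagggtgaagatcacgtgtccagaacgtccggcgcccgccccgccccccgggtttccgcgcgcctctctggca
In Ccnb2, CCAAT occurred 3 times at an even distance of 33 bases, at -87, -54 and -21, followed by TTTGAA at 4 bases after the start, and a further TTTGAA lay at -167. In Cdk1 the last CCAAT, on the opposite strand at -48, was followed by TTTGAA at -15, and an E2F word lay at -131. Cdc20 held CCAAT at -53 and -8 with TTTGAA at -18 between them. Plk1 held 1 CCAAT at -14 and 1 TTTGAA at 30 bases after the start. Positions refer to the leftmost letter as printed, with the start of the gene at 0.

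**Figure D4:**
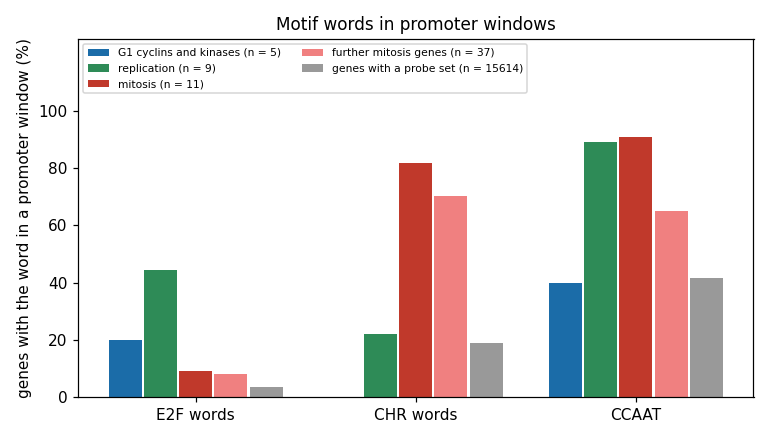
Share of genes with an E2F, CHR or CCAAT word in a window from 250 bases before to 50 bases after the start, in percent, with the number of genes with a window in the key. CHR words reach 81.8% in mitosis members and 70.3% in further mitosis genes, against 19.0% in all genes with a probe set, and E2F words reach 44.4% in replication members. Further G1 and replication genes are not drawn, and E2F words are in 33.3% and 32.3% of them.

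Among further genes of the pathway, mitosis genes had the lowest share, and G1 and not replication genes had the highest. Of 22 measured further G1 genes, 20 were above the Olfr limit (90.9%), of 37 replication genes 25 (67.6%) and of 45 mitosis genes 18 (40.0%), against the 60.4% of all genes. With the 99th percentile these shares were 50.0%, 32.4% and 24.4%, against 42.9%. Under the limit in every mouse were the mitotic transcription factor Foxm1, the kinesins Kif11, Kif20a, Kif23, Kif2c, Kif4 and Kif15, the checkpoint kinase Ttk and the spindle proteins Tpx2 and Nusap1. They are among 23 further mitosis genes of which this was so. Mybl2, Cenpa, Bub3, Pttg1 and Spc24 are among the 18 that were above the limit in every mouse. More than 1.5-fold between mice was seen in 3 of 20, 4 of 25 and 2 of 18 of the genes above the limit. At 11.1% to 16.0% these shares were near the 12.8% of all genes.

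The widest spread of the further G1 genes was in Cdkn2b, an inhibitor of CDK4 and CDK6, with 6.64, 6.15, 5.93 and 5.88, Ccng1, a target of p53, with 8.92, 9.47, 9.65 and 9.46, and E2f2, with 6.60, 5.94, 6.10 and 6.10. Cdkn2b and E2f2 were highest in mouse 1, whereas Ccng1 was lowest there. Of the replication genes it was in Rfc1, the large subunit of the clamp loader (6.20, 6.70, 6.96 and 7.02), Cdc45, an activator of the MCM helicase (6.10, 5.67, 5.46 and 5.44), and Orc4, of the origin recognition complex (6.48, 7.20, 6.88 and 6.87). Cdc45, like Cdk1, was highest in mouse 1 and lowest in mouse 4. Of the mitosis genes it was in Mad2l1, of the spindle checkpoint (5.65, 6.31, 5.86 and 6.54), Smc4, of condensin (6.24, 6.60, 6.87 and 6.83), and Incenp, the scaffold of the chromosomal passenger complex (5.89, 5.52, 5.43 and 5.45). Incenp was highest in mouse 1, as Cdk1 was, and Mad2l1 and Smc4 were lowest there.

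Markers of cells that may divide in or pass through the liver were looked at beside these genes. Macrophage markers (8 of 8) and endothelial markers (6 of 6) were above the limit. T cell markers (1 of 7), B cell markers (3 of 5), neutrophil markers (2 of 8), erythroid markers (3 of 6) and cholangiocyte markers (2 of 4) were so in part. The largest SDs between mice were in Tat, Cyp2e1 and Hnf4a for hepatocytes, Marco, Vsig4 and Cd68 for macrophages, Lyve1, Kdr and Stab2 for endothelium, Lrat, Col1a2 and Col1a1 for stellate cells and Ctrb1, Ctrl and Cpa1 for acinar cells. The genes above the limit of the other lists with the widest spread were Cd3e, Pax5, Cd22, Cd79b, S100a9, Camp, Slc4a1, Alas2, Epor, Sox9 and Krt7. Defining markers of the same cell type fell on both sides, with Cd3e above the limit and Cd3d and Cd3g of the same receptor complex under it in every mouse, Cd79b above and Cd79a under, and S100a9 above and S100a8 under. In which cells the cell cycle transcripts lay cannot be told from whole liver.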

How the data were processed

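Liver RNA (150 ng per mouse) of 4 mice was hybridized to Mouse Gene 1.0 ST arrays. The authors deposited log2 expression values, made with RMA in the Affymetrix Expression Console per the labels. RMA corrects background, normalizes arrays by quantiles and combines the probes of a gene. Quantile normalization holds back differences in overall signal, and neither the set of arrays processed together nor a genome build was given in the sources used here. All 4 value columns were assigned by sample, leaving 0 without one.

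Of 35556 probe sets, 21789 had 1 symbol in the platform annotation, 1621 several and 12146 none here. Gene identifiers matched the RefSeq table (GRCm38.p6) for 21698, and 0 symbols changed. Arrays were compared in pairs, with no more than 25 identical probe set values in a pair, so none was a copy. The number of arrays limits precision. Nothing in the labels says whether the mice shared a litter or cage.

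Means and SDs were taken on the log2 scale over 4 mice, with Python 3.11.15, numpy 2.4.6, pandas 2.3.3 and matplotlib 3.10.9. Steps were tested on simulated arrays. These had less noise than the data, and calls were checked only for genes well away from the limit, so calls near the limit were not tested. No test was run, as the mice form 1 group. All 38 members are named, with the 3 genes above the limit of largest SD in each further list, plus genes that a count turns on. The members and lists were chosen with earlier results of these data known. Foxm1, the kinesins, Ttk, Tpx2 and Nusap1 and the Cd3d, Cd3g, Cd79a and S100a8 markers were picked after their values were seen. So were Mybl2, Cenpa, Bub3, Pttg1 and Spc24. Alternatives were other limits, Olfr with vomeronasal probe sets, 3 of 4 arrays, the mean of probe sets, median-centred or quantile-normalized arrays, a 2-fold range, no filter, other class members and leaving out each mouse.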

Additional observations from a re-analysis of the deposited data

Results flagged for a closer look

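In 2 genes 1 mouse stood apart, in that its gap to the nearest mouse, divided by the range of the 4 mice, was over Dixon's critical value for groups of 4. The ratio was 0.964 for Mcm4 and 0.837 for Rrm2. Mcm4 was low in mouse 2, at 5.44, while the other mice lay between 5.60 and 5.61. Rrm2 was high in mouse 1, at 6.78, while the other mice lay between 6.41 and 6.47. Chance flags about 1 in 20 groups, 45 genes were looked at, and 5.72% of all genes above the Olfr limit met the same criterion. A cause was not tested.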

How the results depend on the processing

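The count of 27 genes above the Olfr limit was between 27 and 31 with the 90th percentile, with Olfr and vomeronasal probe sets, with 3 of 4 arrays, with the mean of probe sets, with quantile normalization and without any 1 mouse. By construction, the 90th percentile, 3 of 4 arrays and leaving out a mouse could not lower this count. With the 99th percentile it fell to 13, with 4 replication and 1 mitosis gene. The count of G1 genes was 11 when inhibitors and E2F factors were added to them, by construction. The 6 genes over 1.5-fold were the same genes with quantile-normalized and median-centred arrays. Their number was 0 with a 2-fold range and 1 to 6 with 1 mouse left out, lowest without mouse 1. Recomputed in other ways, 250 of 252 gene levels stayed within 1 SD, the others being Cdkn1b (6.40) and Top2a (4.70) with the mean of their probe sets. Most of these outcomes were fixed in advance. Leaving out 1 mouse or median-centring cannot move a mean of the mice by 1 SD. The mean of probe sets could only move Cdkn1b, Pcna, Tk1 and Top2a. The count is therefore no measure of robustness. Of 84 class differences in 1 mouse, 83 moved by less than the SD of the 4 mouse values of that class and 5 changed sign. The mean of probe sets could not move those of G1 or mitosis genes. In mitosis genes the difference was 0.11 in mouse 3 and -0.05 in mouse 1 without the filter on low values. The cause was not tested. Signal over background limits the calls of genes near the limit, since 13 of 36 genes had a mean distance under 0.5 from it. Of all 19938 genes, 4929 were as near. No paired analysis was possible because all livers share 1 genotype.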
